A study of Mus musculus with 64 samples.

Results

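The 10 genes of the Lin28, Igf2bp and Hmga fetal programme were described in RNA-seq read counts of 64 mouse libraries. The genes were matched by exact symbol: Lin28a, Lin28b, Igf2bp1, Igf2bp2, Igf2bp3, Hmga1, Hmga2, Dis3l2, Zcchc11 and Zcchc6, 10 of the 23338 genes that each library lists. All samples carried the strain label C57BL/6 and a male or female label, and no treatment or engineered allele was named. The groups were 12 eight-cell embryos (6 male, 6 female, collected at 2.5 dpc, days post-coital, and sequenced 1 embryo per library), 4 lines of embryonic stem (ES) cells held in 2i medium (2 male, 2 female, each grown from the inner cell mass of 1 embryo), 24 livers of late-gestation fetuses (12 male, 12 female) and 24 adult livers from animals 15 to 20 weeks old (12 male, 12 female). Embryo RNA was amplified by PCR with a single-cell protocol, whereas a stranded total RNA kit was used for all other libraries. Stage and protocol therefore cannot be told apart in any comparison with the embryos, and none was tested.

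LIN28A and LIN28B are RNA-binding proteins that block the maturation of the let-7 microRNAs. LIN28A binds the loop of the precursor hairpin and recruits the terminal uridylyltransferases ZCCHC11 (TUT4) and ZCCHC6 (TUT7). The exonuclease DIS3L2 degrades the oligouridylated precursor. Mature let-7 in turn represses Lin28a, Lin28b, the Igf2bp genes and the Hmga genes through sites in their 3′ untranslated regions (UTRs), so that low let-7 and high LIN28 go together in early embryos and stem cells. The IGF2BP proteins bind and stabilise messenger RNAs, Igf2 among them, HMGA1 and HMGA2 are small chromatin proteins that bend AT-rich DNA, and in fetal liver the programme is known from fetal-type blood progenitors. The microRNAs were not measured here.

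The sequences through which these genes are linked are shown first. In the RefSeq microRNA records of GRCm38.p6, 11 mature mouse microRNAs share the let-7 seed (bases 2 to 8, in capitals), of which 3 stand here for the family:
mmu-let-7a-5p: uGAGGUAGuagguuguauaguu
mmu-let-7d-5p: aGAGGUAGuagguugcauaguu
mmu-let-7g-5p: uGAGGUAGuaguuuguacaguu

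LIN28 recognises a GGAG motif in the loop between the arms of the precursor. The letters GGAG were found in the loop of 8 of the 11 let-7-seed hairpins whose loop could be delimited, against 52 of 644 mouse hairpins of all families (8.075%). Of these loops, 3 are printed with the motif in capitals, and a match is a description of the letters and not of binding:
Mirlet7a-1 loop: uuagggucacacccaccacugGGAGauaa
Mirlet7e loop: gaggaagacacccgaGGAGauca
Mirlet7f-2 loop: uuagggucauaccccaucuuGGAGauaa

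The seed pairs with the letters CTACCTC in a 3′ UTR, searched on the transcribed strand of the longest annotated 3′ UTR of each gene (GENCODE annotation of GRCm38). Lin28b, Igf2bp1 and Hmga2 each held 4 such matches, a number reached by 12 of 21022 genes (0.0571%). Lin28a held 2, and Igf2bp2, Igf2bp3 and Hmga1 held 1 each, whereas 9.024% of all genes held at least 1. No match was found in the 3′ UTRs of Dis3l2, Zcchc11 and Zcchc6. The match nearest to the stop codon is printed for each gene that held one, with the letters that pair with the seed in capitals and the minus or plus strand on which the gene lies:
Lin28a, chr4:134005189-134005211, minus strand: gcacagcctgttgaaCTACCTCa
Lin28b, chr10:45381022-45381044, minus strand: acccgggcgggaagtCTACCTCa
Igf2bp1, chr11:95961778-95961800, minus strand: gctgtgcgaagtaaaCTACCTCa
Igf2bp2, chr16:22059473-22059495, minus strand: acacacaaataaaagCTACCTCa
Igf2bp3, chr6:49086787-49086809, minus strand: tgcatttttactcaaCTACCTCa
Hmga1, chr17:27563277-27563299, plus strand: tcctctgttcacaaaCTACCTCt
Hmga2, chr10:120364224-120364246, minus strand: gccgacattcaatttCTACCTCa

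**Figure D1:**
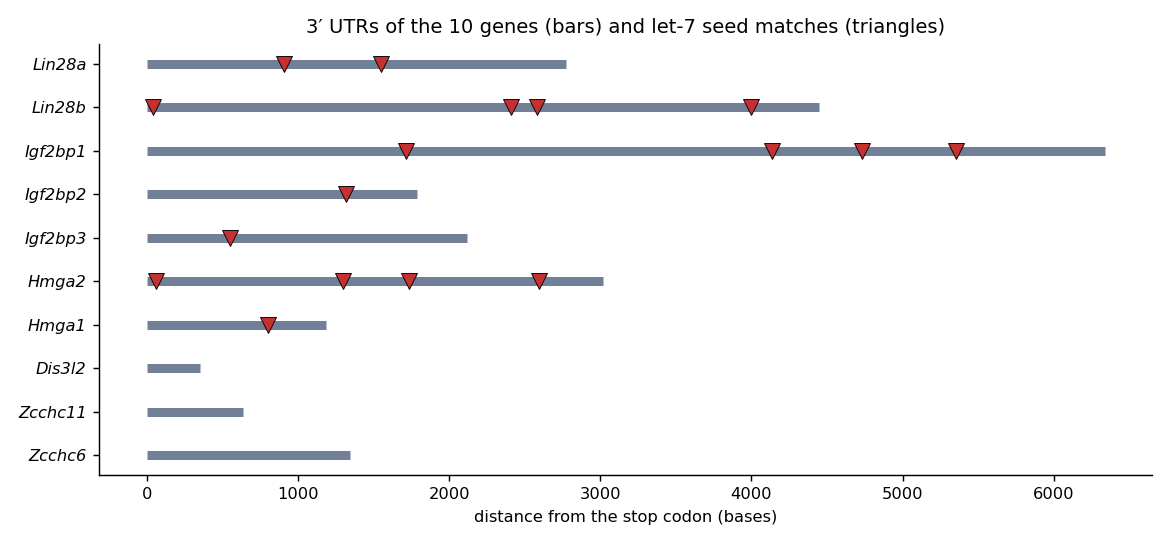
Map of the 3′ UTRs of the 10 genes, drawn to scale as bars from the stop codon (x axis, bases), with each let-7 seed match as a triangle. Lin28b, Igf2bp1 and Hmga2 carry 4 matches each and Dis3l2, Zcchc11 and Zcchc6 none.

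Reads on genes numbered 4659656 to 7725432 per embryo, 9857929 to 10386931 per ES line, 5145371 to 8499603 per fetal liver and 1567583 to 4757610 per adult liver, so the adult livers were the shallowest. Levels are given as CPM, normalised read counts relative to library size and scaled with TMM factors over all 64 libraries. Markers matched the stage labels: the summed CPM of 6 pluripotency genes was 2163 to 2633 in ES lines and at most 3.46 in any liver, and that of 6 hepatocyte genes was 19864 to 26798 in fetal and 41677 to 59505 in adult liver. Fetal livers differed from adult livers in other markers too. The sum of 10 erythroid genes ranged from 5265 to 7768 CPM in fetal and from 53.0 to 357 CPM in adult liver, and the sum of 6 proliferation genes from 3386 to 5234 CPM in fetal and from 9.52 to 59.3 CPM in adult liver. The 4 globin genes (Hba-a1, Hba-a2, Hbb-b1, Hbb-b2), which have near-identical copies, were listed at 0 in all adult livers and at 33 reads or fewer in all fetal livers together. Their part in the results was not tested, and in bulk tissue fewer cells of a type and less RNA per cell cannot be told apart. Male embryo 1 had the lowest Hmga2 and the highest Lin28b, Igf2bp3, Dis3l2 and Zcchc11 of the 12.

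Lin28a (chr4:134003330-134018841), the form of LIN28 typical of pluripotent cells, was highest in ES cells. Its level was 190 and 153 CPM in the male lines and 128 and 109 CPM in the female lines. In embryos it ranged from 9.06 to 77.6 CPM (median 33.9), in fetal liver from 4.42 to 15.1 CPM (median 9.17), and in all 24 adult livers it was listed at 0. The ES lines lay above every embryo and liver, embryos and fetal livers overlapped, and no fetal liver overlapped an adult one.

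Lin28b (chr10:45376620-45486395), the paralogue known from fetal liver and fetal blood formation, had another order of levels. It was highest in fetal liver, at 21.3 to 39.0 CPM (median 30.4). The ES lines had 26.9 and 14.7 CPM (male) and 15.7 and 11.3 CPM (female), and the embryos 0.615 to 27.6 CPM (median 5.51). Adult livers held 1 read of Lin28b among all 24. Fetal livers and ES lines overlapped through male ES line 1, as did ES lines and embryos.

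On the scale of CPM per kilobase of annotated exons, which allows levels of different genes to be compared, the pair changed places between stages. Lin28b made up 4.05 to 5.88% of the Lin28a and Lin28b level in the 4 ES lines, 43.7 to 73.3% (median 60.5%) in the 24 fetal livers and 0.348 to 43.1% (median 9.46%) in the 12 embryos. Fetal livers had a higher Lin28b share than every other library. The lowest fetal share lay just above the highest embryo share, and the embryo shares hold for the amplified protocol. With 1 read of the pair in all adult livers, no share was computed there.

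Igf2bp1 (chr11:95957163-96005940), which encodes the zipcode-binding protein IMP1, followed the order of Lin28a. The ES lines reached 627 and 399 CPM (male) and 473 and 483 CPM (female). Embryos ranged from 29.2 to 89.4 CPM (median 62.1) and fetal livers from 26.0 to 54.8 CPM (median 34.6), and the 2 groups overlapped. Adult livers held 2 reads among all 24.

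Igf2bp3 (chr6:49085223-49214957), an oncofetal member known from fetal haematopoietic progenitors, was the steadiest of the family among fetal livers. It ranged there from 71.4 to 113 CPM (median 84.4; coefficient of variation 9.91%), against 119 and 161 CPM in the male and 134 and 128 CPM in the female ES lines. Embryos had 2.15 to 52.6 CPM (median 23.5), and adult livers held 1 read among all 24. The 4 stages did not overlap with each other.

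Igf2bp2 (chr16:22059009-22163299), the member that also acts in adult metabolic tissues, was highest in embryos. They had 155 to 351 CPM (median 186), followed by the ES lines at 44.9 and 43.9 CPM (male) and 55.4 and 62.7 CPM (female) and by fetal livers at 11.6 to 27.5 CPM (mean 18.7). Adult livers retained 0 to 2.76 CPM (median 1.54), with at least 1 read in 22 of 24. Neighbouring stages did not overlap, but 0 to 8 reads stood behind each adult value.

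Per kilobase, a different Igf2bp gene led in each early stage. Igf2bp2 accounted for 61.1 to 86.1% of the family in embryos, Igf2bp1 for 61.6 to 75.9% in ES lines, and Igf2bp3 for 56.5 to 70.4% in fetal livers. In each of these stages the leading gene had the highest share in every library. The amplified embryo protocol is primed at the poly(A) tail, which can change the yield of long messenger RNAs, so the embryo shares hold for that protocol.

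**Figure D2:**
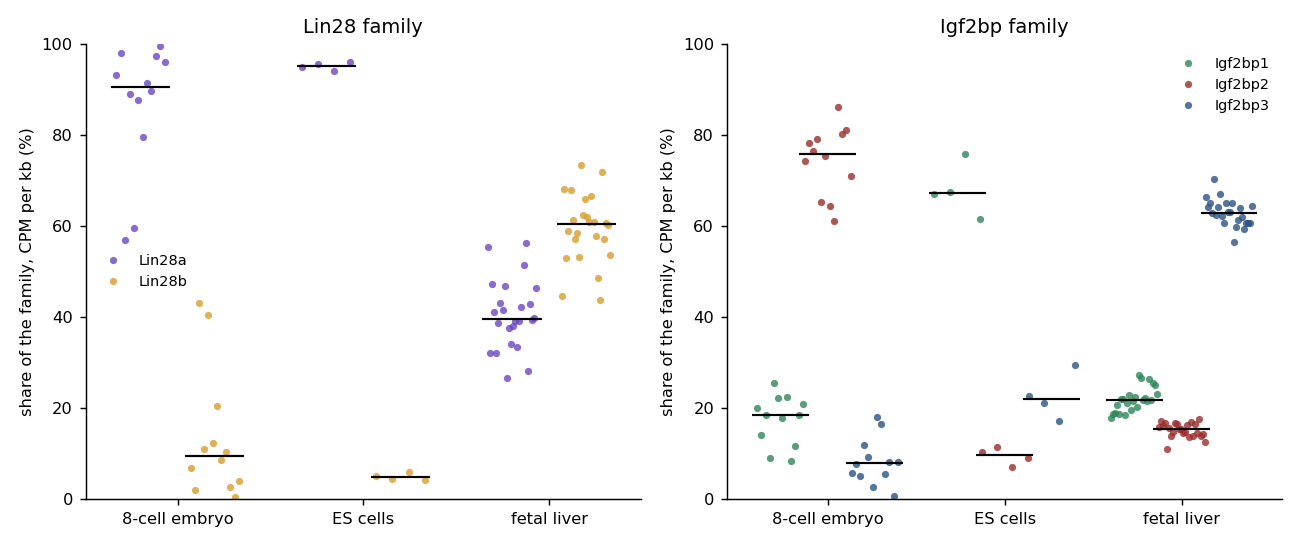
Share of each gene in the summed CPM per kilobase of its family (y axis, %), by library (points) with the median (line), in embryos, ES lines and fetal livers. Lin28b leads Lin28a only in fetal liver by the median (60.5%), and Igf2bp2, Igf2bp1 and Igf2bp3 lead in embryos, ES lines and fetal livers in turn.

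Hmga2 (chr10:120361275-120476469), the fetal architectural chromatin protein, was by the median the most abundant of the 10 genes in embryos, also per kilobase (median 59.1 CPM per kilobase, against 25.2 for Igf2bp2). Male embryo 1 was an exception, with 153 CPM of Hmga2 and 171 CPM of Igf2bp2 (22.6 and 23.1 CPM per kilobase). Embryos ranged from 153 to 567 CPM (median 401), and without male embryo 1, the lowest, the mean moved from 394 to 415 CPM. The ES lines had only 4.26 and 5.02 CPM (male) and 14.1 and 20.6 CPM (female), fetal livers 4.23 to 9.41 CPM (median 6.48) and adult livers 0 to 1.47 CPM (median 0.435). No embryo overlapped any other library, the ES lines and fetal livers overlapped, and every fetal liver lay above every adult liver. The adult values rest on 0 to 4 reads per library.

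Hmga1 (chr17:27556497-27563674) could hardly be measured. It had no read in any embryo, 5 and 18 reads in the male and 8 and 11 in the female ES lines, 0 to 5 in fetal livers and 0 or 1 in adult livers. Of the 50-base stretches in its annotated transcripts, 54.95% also occur in transcripts of 1 other gene. Reads that align to more than 1 place were not counted, and its level is uncertain at every stage. The part of this overlap in its low counts was not tested.

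The enzymes downstream of LIN28A did not share this pattern. Zcchc6 (chr13:59771561-59823147) was by the median the higher of the uridylyltransferases per kilobase in both livers (61.3 and 77.6% of the pair). It ranged from 237 to 314 CPM in fetal and 168 to 262 CPM in adult liver, with 51.9 to 68.0 CPM in ES lines and 5.71 to 20.9 CPM in embryos. Zcchc11 (chr4:108459426-108559421) ranged from 76.6 to 231 CPM in fetal liver, 17.1 to 59.2 CPM in adult liver, 41.8 to 44.7 CPM in ES lines and 0 to 57.5 CPM in embryos. Dis3l2 (chr1:86703808-87050095) stayed within 20.8 to 41.2 CPM in all livers and ES lines, whereas 6 of 12 embryos had no read of it. Each of the 3 enzymes was thus detected in every adult liver, where Lin28a was not.

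**Figure D3:**
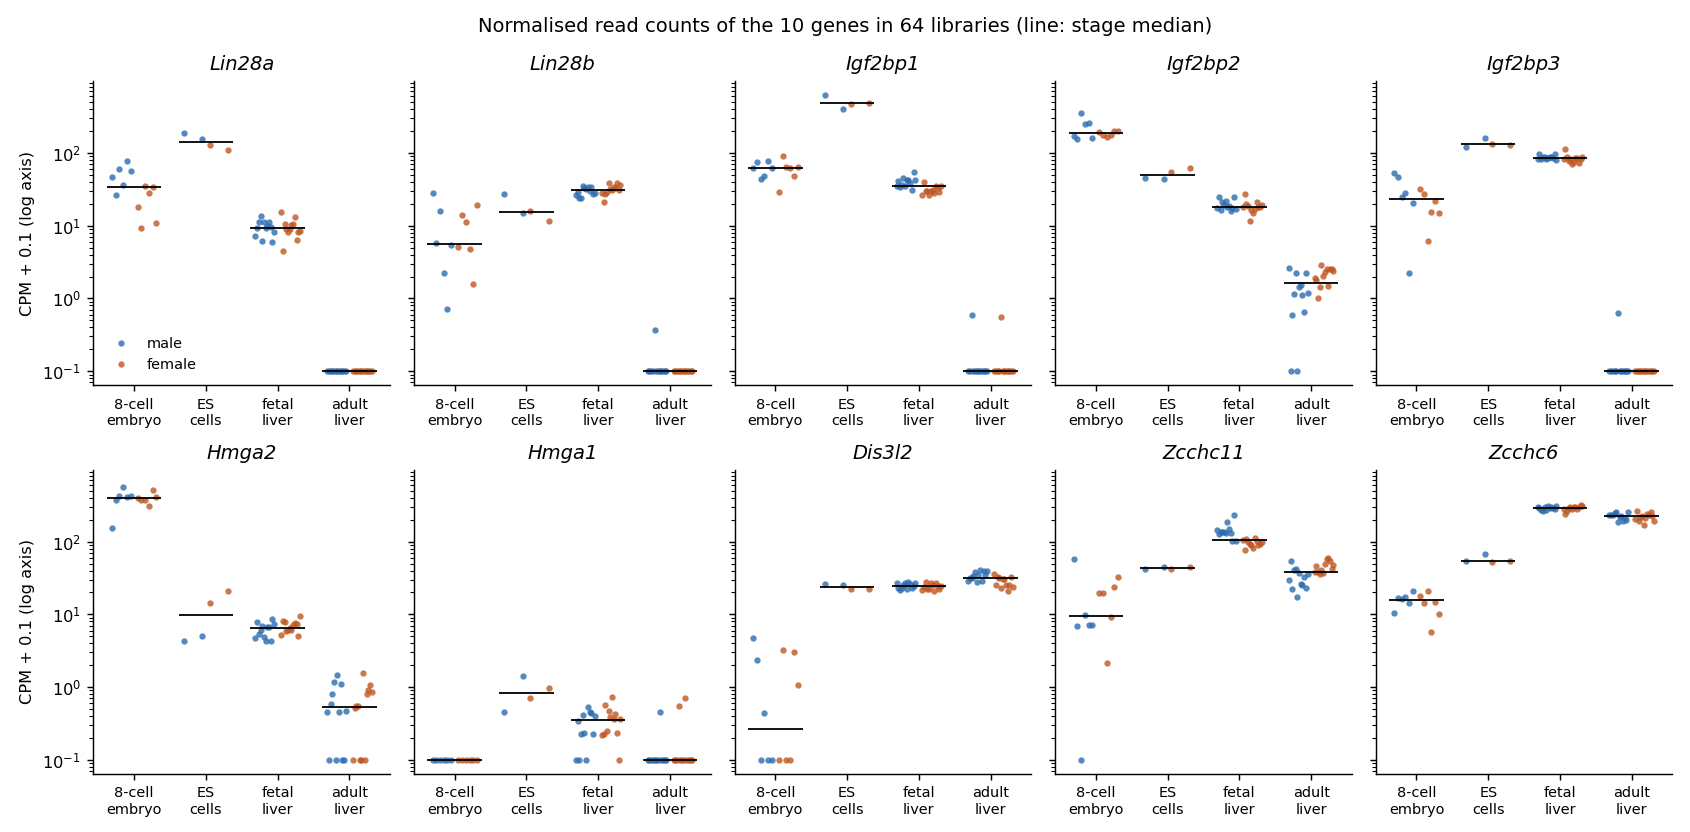
Level of each of the 10 genes in every library (y axis, CPM + 0.1 on a log axis) by stage, males in blue and females in orange, with the stage median as a line. Lin28a, Lin28b, Igf2bp1 and Igf2bp3 fall to 0 or 1 read in every adult liver, and Hmga2 and Igf2bp2 are highest in embryos.

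The fall of the programme between fetal and adult liver was tested with edgeR's quasi-likelihood test on 48 livers, with gender as a term. A gene was called at a Benjamini-Hochberg adjusted p under 0.05 and an absolute log2 fold change above 1, which 43.4% of the 13026 genes tested met (23.7% lower and 19.7% higher in adult liver). Of the 9 genes tested, 7 were called and all were lower: Lin28a, Lin28b, the 3 Igf2bp genes, Hmga2 and Zcchc11. The first 6 did not pass the filter on low counts in adult livers by themselves and entered through the fetal libraries. They could hardly appear here without being lower in adults, so their adjusted p given below is no separate support for a fall. Hmga1 did not pass the filter.

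For Igf2bp2 the log2 change was -3.49 (SE 0.13, adjusted p = 4.6e-31), and the pooled fetal level was 12.3 times the adult one (95% interval 9.85 to 15.5). Hmga2 changed by -3.55 (SE 0.20, adjusted p = 1.3e-23), a pooled ratio of 13.4 (9.07 to 20.5). These 2 genes were low but detectable in the adult organ, in 22 and 16 of 24 livers.

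The other 4 genes were at or near 0 in adults, so the fitted changes depend on the software's prior count and pooled reads are given instead. Lin28a, with 1702 fetal reads and none in adults, was at least 168-fold higher in fetal liver, taking 3 reads over the 24 adult livers as the floor. Lin28b, with 5518 against 1 read, gave a ratio of 1635 (interval 293 to 64594), Igf2bp1, with 6369 against 2, a ratio of 944 (261 to 7794), and Igf2bp3, with 15375 against 1, a ratio of 4556 (818 to 179960). Intervals and floors cover counting error only, and the adjusted p of all 4 in the edgeR fit was at most 1.1e-19.

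Of the enzymes, Zcchc11 fell by 1.51 on the log2 scale (SE 0.12, adjusted p = 1.6e-16). Dis3l2 was 0.46 higher in adults (SE 0.051, adjusted p = 4.4e-12) and Zcchc6 was lower with a log2 change of -0.27 (SE 0.039, adjusted p = 9.2e-09), both under the fold threshold. The share of uniquely aligned reads that the counting assigned to no gene (called reads outside genes) also differed between the stages. It was 34.1 to 49.0% in fetal and 25.7 to 36.6% in adult livers. Whether these reads lay in introns or between genes cannot be told from the counts. With that share as a covariate, the Zcchc11 change was -0.68 and no longer called, and the other 6 calls held.

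Between ES cells and fetal liver, 5 of the 9 genes were called, against 56.5% of the 14858 genes tested (23.7% higher and 32.8% lower in ES cells). Lin28a (log2 3.99, SE 0.13), Igf2bp1 (3.87, SE 0.088) and Igf2bp2 (1.51, SE 0.12) were higher in ES cells, with adjusted p of at most 1.2e-13. The uridylyltransferases Zcchc6 (-2.29, SE 0.072) and Zcchc11 (-1.36, SE 0.16) were lower. The called share of the 9 genes was near that of all genes tested. Not all transcripts of RNA-binding proteins were higher in ES cells, since Lin28b was lower (-0.79, under the fold threshold).

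Lin28b (-0.79, SE 0.15), Igf2bp3 (0.72, SE 0.071) and Hmga2 (0.73, SE 0.21) differed with adjusted p of 1.4e-05, 7.2e-11 and 0.0022, but by less than the fold threshold. Lin28b and Hmga2 passed it without male ES line 1 (-1.07 and 1.02), the line with the highest Lin28b and the lowest Hmga2. With Hmga1, which passed the filter on low counts in that fit, 8 genes were then called. The Hmga2 difference lay in the female ES lines (14.1 and 20.6 CPM), both above every fetal liver (4.23 to 9.41 CPM). Both male lines (4.26 and 5.02 CPM) lay within the fetal range. Whether the stage difference depends on gender was not tested. Without female ES line 4, the highest, the fitted Hmga2 difference was 0.34 (adjusted p = 0.14). Dis3l2 differed by 0.0068 (SE 0.069, adjusted p = 0.93).

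Between ES cells and adult liver, 7 of the 9 were called, against 65.3% of 13102 genes (32.3% higher and 33.1% lower in ES cells). Those higher in ES cells were the 6 Lin28, Igf2bp and Hmga2 genes, which did not pass the filter in adult livers by themselves and entered through the ES libraries, so that they could hardly appear here without being higher in ES cells. Igf2bp2 differed by 5.02 (SE 0.15), the pooled ratio of Hmga2 was 22.1 (14.9 to 34.1), and the pooled ES level of Lin28a was at least 2599-fold higher than the adult floor. Zcchc6 was lower (-1.98, SE 0.099, adjusted p = 5.7e-20). Dis3l2 (-0.41, SE 0.098) and Zcchc11 (0.18, SE 0.15, adjusted p = 0.25) were not called. The 3 stage comparisons share libraries and are not independent.

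**Figure D4:**
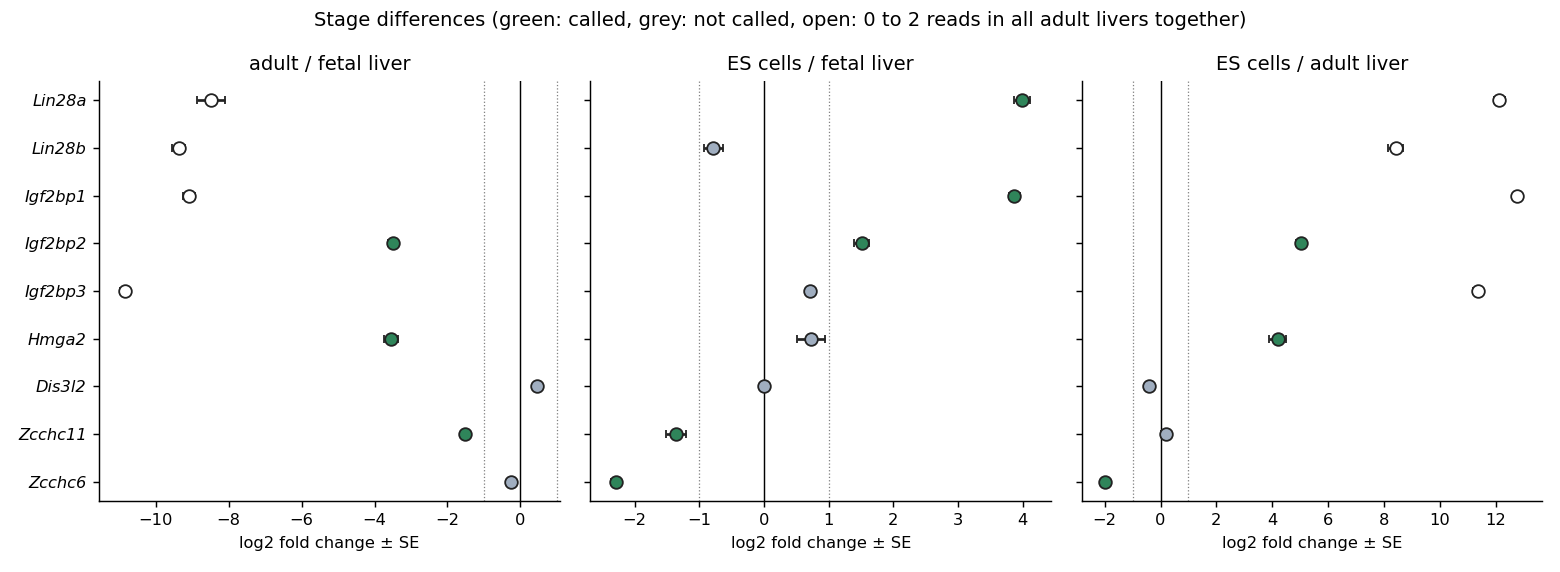
Log2 fold change with its SE (x axis) of 9 genes in 3 comparisons; green points were called, grey points were not, and open points mark genes with 0 to 2 reads in all adult livers together, whose fitted value is no estimate of size. Zcchc6, Zcchc11 and Lin28b (not called) lie left of 0 in ES cells against fetal liver, opposite to Lin28a, Igf2bp1 and Igf2bp2.

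The study asked how expression differs between the sexes at each stage, and called a gene at an adjusted p under 0.1 when log2 (male/female) lay above 0.5 or below -0.5. In embryos none of the 8 genes tested was called by edgeR, where 0.264% of 9087 genes were (353 at an unadjusted p under 0.05), and none by DESeq2. Lin28a was 26.4 to 77.6 CPM in male embryos (mean 50.7 ± 18.3 SD) and 9.06 to 34.5 CPM in female embryos (mean 22.3 ± 11.2 SD). The groups overlapped, and the log2 of 1.19 (SE 0.39) had an unadjusted p of 0.0062 and an adjusted p of 0.62. Hmga2, the most abundant gene, differed by -0.016 (SE 0.22).

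In ES lines 2 of 10 genes were called, against 9.5% of 12678 genes (3.42% higher and 6.08% lower in males). Hmga2 was lower in the male lines (log2 -1.90, SE 0.25, adjusted p = 0.021) and Lin28a higher (0.54, SE 0.14, adjusted p = 0.095). The male and female lines did not overlap for either gene, as the values above show, but each group held 2 lines. With female line 3 or female line 4 left out, 1 female line remained and 0 of 13120 and 0 of 13108 genes were called by edgeR (1290 and 1163 at an unadjusted p under 0.05), so the loss of both calls there says nothing of these genes. Hmga2 was then -2.14 and -1.61 and Lin28a 0.67 and 0.43. Without male line 1 the Lin28a value was 0.37 and not called.

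In fetal liver 1 of 9 genes was called, against 4.64% of 12930 genes (3.81% higher and 0.828% lower in males). Zcchc11 was 102 to 231 CPM in males (median 135) and 76.6 to 110 CPM in females (median 95.6), with some overlap, and its log2 (male/female) was 0.61 (SE 0.10, adjusted p = 5.3e-05). Igf2bp1 was also higher in males (0.40, SE 0.080, adjusted p = 4.1e-04) but under the fold threshold, at 31.0 to 54.8 CPM (median 39.4) against 26.0 to 39.1 CPM (median 29.9). Lin28a (0.036, SE 0.15), Lin28b (-0.051, SE 0.083), Igf2bp3 (0.088, SE 0.056) and Hmga2 (-0.11, SE 0.12) did not pass.

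The share of uniquely aligned reads outside genes was 39.9 to 49.0% in male fetal livers and 34.1 to 38.1% in those of females, with no overlap, so gender and this library property cannot be told apart across the 24 livers. The share of alignments to more than 1 place did not overlap either, at 23.2 to 26.1% in males and 26.4 to 28.5% in females, and its part was not tested. With the share as a covariate the gender difference of Zcchc11 was 0.031 (SE 0.16, adjusted p = 0.995) and that of Igf2bp1 0.046, and 9 of all genes tested were called in place of 600. Within males, log2 CPM of Zcchc11 and the share had a Pearson r of 0.69 (n = 12, permutation p = 0.019, adjusted 0.039 over 6 relations) and a Spearman rho of 0.44 (p = 0.16), and r was 0.33 without the 2 livers farthest from the median share, so the relation rested on those. Within females r was 0.57 (n = 12, permutation p = 0.055, adjusted 0.082) and rho 0.52 (p = 0.089), with r = 0.51 without the 2 farthest.

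For Igf2bp1 in fetal males r was 0.73 (n = 12, permutation p = 0.0073, adjusted 0.022), rho 0.59 (p = 0.049) and r without the 2 farthest 0.55. In fetal females r was -0.077 (n = 12, permutation p = 0.81) and rho -0.021. The tests of these correlations were two-sided.

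In adult liver 3 of the 10 genes had enough reads to be tested, and 1 was called, against 9.49% of 10372 genes (3.01% higher and 6.48% lower in males). Zcchc11 was lower in males, the opposite of fetal liver, at 17.1 to 54.0 CPM (median 30.8) against 35.7 to 59.2 CPM (median 43.9) in females. Its log2 (male/female) was -0.53 (SE 0.14, adjusted p = 0.0050), close to the fold threshold: it was -0.41 in the 15 livers with at least 2500000 reads and -0.50 without the filter on low counts, and in neither called. Dis3l2 was 27.9 to 41.2 CPM in males and 20.9 to 35.4 CPM in females (0.26, SE 0.086, adjusted p = 0.027), under the fold threshold.

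Other measures moved with gender in adult liver. Of 5 macrophage markers tested, 4 were lower in males and 1 was not called, with a summed level of 257 to 442 CPM in males and 372 to 721 CPM in females. The erythroid sum was 231 to 357 CPM in males and 53.0 to 128 CPM in females, with no overlap. Of its 10 genes only 2 had enough reads to be tested by gender. Alas2 was higher in males (log2 2.79) and the other was not called (0.16), so the sum is no measure of erythroid cells. Alignments to more than 1 place made up 42.2 to 61.1% of all tallied in males and 32.7 to 43.2% in females. The part of these measures in the Zcchc11 difference was not tested.

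The shares of reads outside genes overlapped between male and female adult livers, at 28.0 to 35.2% and 25.7 to 36.6%. Zcchc11 rose with the share in females (r = 0.76, n = 12, permutation p = 0.0059, adjusted 0.022, rho = 0.82, r = 0.72 without the 2 farthest). Females with a high share also tended to have fewer reads on genes. The female liver with the highest share (36.6%) had 1575399 and that with the lowest (25.7%) had 2804801. The part of depth in this relation was not tested. In males r was 0.25 (n = 12, permutation p = 0.43) and rho 0.25.

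The change of the gender difference between fetal and adult liver was tested as an interaction, which 33.7% of 13026 genes passed at an adjusted p under 0.1 (18.7% with a higher and 14.9% with a lower value in adults). Of the 9 genes tested 3 passed, a share near that of all genes: Zcchc11 (-1.09, SE 0.17, adjusted p = 3.4e-06), Igf2bp2 (-0.80, SE 0.33, adjusted p = 0.061) and Dis3l2 (0.23, SE 0.098, adjusted p = 0.080). Dis3l2 did not pass with DESeq2 (adjusted p = 0.12), and neither it nor Igf2bp2 passed when adult livers with fewer than 2500000 reads were left out (adjusted p = 0.28 and 0.26). For Igf2bp2, male livers had 0 to 2.52 CPM and female livers 0.916 to 2.76 CPM in adults, on at most 8 reads per library. With the share of reads outside genes as a covariate with 1 slope per stage, only Zcchc11 passed (-0.56, adjusted p = 0.096).

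**Figure D5:**
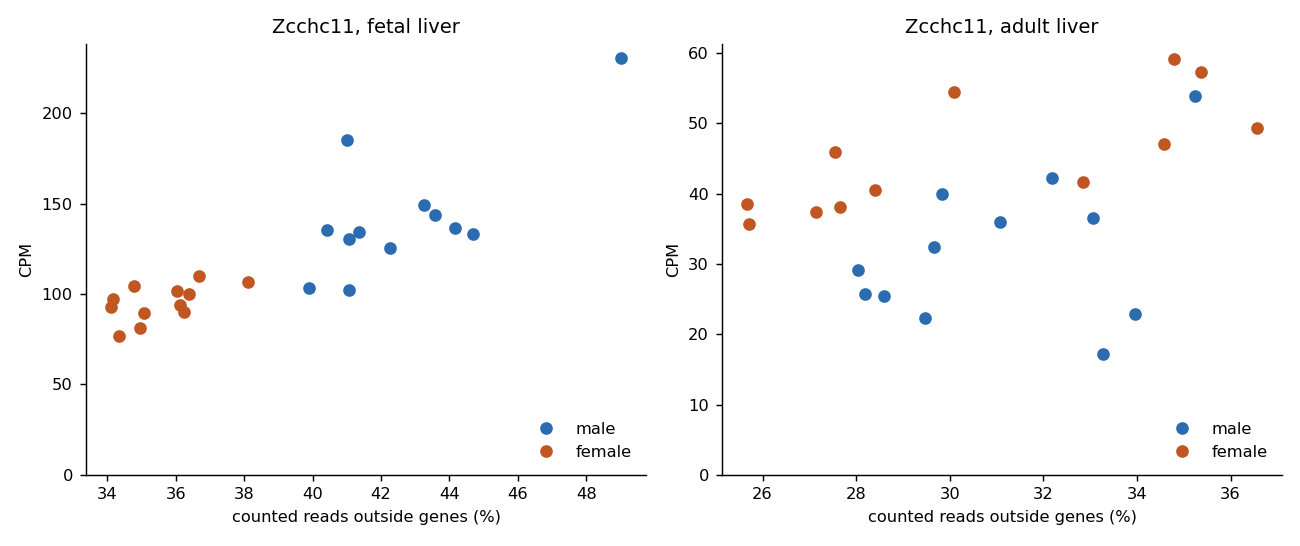
Zcchc11 level (y axis, CPM) against the share of uniquely aligned reads outside genes, meaning assigned to no gene (x axis, %), in fetal and adult livers. Each point is 1 liver, males in blue and females in orange. In fetal liver the male points lie entirely to the right of the female points, with 1 male liver at 49.0% and 231 CPM, and in adult liver the groups overlap on the x axis.

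Other genes of the let-7 pathway were described from lists, counted by calls and by the median. Of 15 symbols for the processing machinery, some of them older and newer names of 1 gene, 12 were in the files and tested. In adult against fetal liver 4 were lower, 1 higher and 7 not called, a called share near the 43.4% of all genes, with a median log2 of -0.36 against -0.046 over all genes tested. Eif2c2 (Argonaute 2) changed most, by -2.74 (SE 0.13), followed by Dgcr8, the partner of Drosha, by -1.47 (SE 0.054), and Prkra, a cofactor of Dicer, rose by 1.11 (SE 0.069). In ES cells against fetal liver 4 were higher, 1 lower and 7 not called, where 56.5% of all genes were called, with the largest increases in Drosha (1.60, SE 0.083) and in Xpo5 (1.43, SE 0.044), the exporter of precursors.

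Of 26 genes known as let-7 targets, 11 were lower, 3 higher and 12 not called in adult against fetal liver, where 23.7% of all genes were lower and 19.7% higher, and the median was -0.74. Trim71 (Lin41), a pluripotency ubiquitin ligase with 4 seed matches in its 3′ UTR, had 28 to 89 reads in each fetal liver and none in any adult liver, and setting it to its bound left the median at -0.74. The phosphatase gene Dusp9 had 5624 fetal reads and 2 adult ones. Of the 26 genes, 18 passed the filter on low counts in adult livers by themselves. Genes that entered through the fetal libraries, such as Trim71 and Dusp9, could hardly appear here without being lower in adults. The count of lower genes and the median are therefore not like for like with all genes. Cpeb1 (4.60, SE 0.25) and Onecut2 (1.61, SE 0.16), a liver transcription factor, went the other way. In ES cells against fetal liver 8 were higher, 10 lower and 8 not called, where 23.7% of all genes were higher and 32.8% lower (median -0.21 against -0.068 over all genes), with Trim71 (5.01, SE 0.10) and Mycn (4.64, SE 0.20) highest and Onecut2 (-5.32, SE 0.44) and Ccnd2 (-4.42, SE 0.20) lowest.

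The counts also list 11 Mirlet7 loci, whose short hairpins a total RNA library records only in part. Their summed level was 3.23 to 4.05 CPM in ES lines, 3.41 to 7.09 CPM in fetal livers and 1.43 to 9.06 CPM in adult livers, and the groups overlapped. None passed the filter in adult against fetal liver, and neither of 2 tested by gender in fetal liver was called. In ES cells against fetal liver none of 3 tested was called by edgeR, at adjusted p of 0.028, 0.27 and 0.75. These reads say nothing of the mature microRNAs.

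Igf2, the growth factor gene whose messenger RNA the IGF2BP proteins bind, and its imprinted neighbour H19 were abundant only in fetal liver among these stages. Igf2 ranged from 798 to 1582 CPM in fetal livers (median 957), 0.712 ± 0.063 CPM (mean ± SD) in the 4 ES lines, 0 to 7.73 CPM in embryos and 0 to 1.38 CPM in adult livers. H19 ranged from 3365 to 6409 CPM in fetal livers (median 5489), and adult livers held 13 reads of each gene in all. In ES cells, where Igf2bp1 was highest, Igf2 was 10.38 lower on the log2 scale than in fetal liver (SE 0.19) and H19 11.35 lower (SE 0.17).

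The genes most alike in pattern were found by the Pearson correlation of log2(CPM + 0.5) over the 64 libraries, among 13974 genes that averaged 1 CPM or more. This r mostly reflects the 4 stages and the embryo protocol that the libraries share, and is a description. Lin28a was most like Hat1 (0.97), Psrc1 (0.97) and Dut (0.97), and Lin28b most like Ttll12 (0.97), H2afx (0.96) and Dyrk3 (0.96). Igf2bp3 was most like Top2a (0.98), Plk4 (0.98) and Kif11 (0.98), all of which act in cell division. Hmga2 was most like Lrr1 (0.98), Mta3 (0.98) and Cited1 (0.98), whose means were 411, 709 and 515 CPM in embryos and 13.3, 41.9 and 4.64 CPM in ES lines.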

How the data were processed

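The authors aligned reads to mm10 with TopHat2 2.0.4, Bowtie2 2.1.0 and SAMtools 0.1.18, removed duplicates with Picard and counted reads per gene with HTSeq; the deposited values are raw counts per gene and library, without normalisation. The strand setting of HTSeq was not given in the sources used here, so reads of a gene and of an overlapping antisense gene may not have been separated. Duplicate removal can lower counts of abundant genes. Rows tallying unassigned reads were left out of library sizes. They gave the share of uniquely aligned reads outside genes, 8.63 to 49.0% per library. This share counts reads assigned to no gene, which may include reads in introns. Fetuses were taken at 17.5 dpc. The paper gives 4 litters for the embryos, but which embryo came from which litter is not in the labels. The numbers of fetal litters and adult litters are not in the labels either. Litter was therefore not a term in any fit. The p-values treat the samples as independent and can be too small if littermates are alike. The paper pooled 12 libraries per lane, but the lane of each library is not in the labels. Whether lane and gender coincide is therefore not known.

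Counts were tested with edgeR 4.0.16 in R 4.3.3 (TMM, filterByExpr, robust quasi-likelihood F test, two-sided), adjusted over all genes tested. DESeq2 1.42.0 was an alternative. SE is the absolute log2 fold change over the square root of F. CPM used TMM factors over 64 libraries (0.7472 to 1.3357). Pooled ratios carry exact (Clopper-Pearson) 95% intervals. In single libraries 3 reads correspond to 0.289 to 1.91 CPM before TMM scaling. Correlations used 100000 permutations. Summaries used Python 3.11.15, numpy 2.4.6, scipy 1.17.1 and pandas 2.3.3. The fits were first tested on simulated counts, of which 200 genes were changed.

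Lengths, 3′ UTRs and positions came from GENCODE on GRCm38 (mm10), and microRNAs from RefSeq on GRCm38.p6. All 10 genes matched the annotation, Zcchc11 as Tut4 and Zcchc6 as Tut7. The text names all 10 genes, the 3 genes most alike in pattern for 4 of them, Igf2 and H19, and the most changed called genes of the lists. The genes, lists and tests were chosen with earlier results of these data known. Replicate numbers are shared between groups, but in 0 of 24 pairs of fetal and adult livers, and in 0 of 4 pairs of ES lines with either liver, did deviations from the group means correlate above 0.1.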

Additional observations from a re-analysis of the deposited data

Results flagged for a closer look

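Chance flags about 1 in 20 groups by the rule for distant samples, and 28 groups were looked at. Zcchc11 in male embryos was 57.5 CPM in embryo 1, far above the other 5 (0 to 9.71 CPM). Zcchc6 in the ES lines was 68.0 CPM in male line 2, above the other 3 (51.9 to 54.4 CPM).

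The gender difference differed between fetal and adult liver, by the interaction test of edgeR, for Zcchc11 (-1.09), Igf2bp2 (-0.80) and Dis3l2 (0.23), each as adult minus fetal log2 (male/female). These are 3 of 9 genes tested, where 33.7% of all genes passed. Igf2bp2 and Dis3l2 did not pass with the share of reads outside genes as a covariate or in adult livers with at least 2500000 reads, and Dis3l2 did not pass with DESeq2 either. Zcchc11 was higher in male fetal livers and lower in male adult livers. The share of reads outside genes moved with gender in fetal liver, and its part in the change of sign was not tested beyond the covariate fit.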

How the results depend on the processing

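For the 9 genes tested, direction and call in ES against adult liver held under the 10 alternatives that kept the fold threshold. In adult against fetal liver they held under the 8 such alternatives, except that Zcchc11 lost its call with the share of reads outside genes as a covariate. Hmga1, not tested otherwise, was also called without the filter on low counts in all 3 stage comparisons and by DESeq2 in both with ES cells, which made 8 genes in adult against fetal liver, 6 in ES against fetal liver and 8 in ES against adult liver. By adjusted p alone, Dis3l2 and Zcchc6 were added in adult against fetal liver (9 genes) and Dis3l2 in ES against adult liver (8 genes). The number of genes called in ES against fetal liver was 8 by adjusted p alone and 5 to 8 when 1 ES line was left out, and Dis3l2 there lay near 0, changed sign without male ES line 1 (-7.63e-06) and ranged up to 0.053 (without female line 4). The number called by gender in ES cells was 0 to 3 when 1 line was left out. In fetal liver it was 2 by adjusted p alone and 0 with the covariate. In adult liver it was 0 without the filter on low counts, 2 by adjusted p alone and 0 in livers with at least 2500000 reads, an alternative chosen for this comparison after seeing the data. The interaction count was 1 in livers of that depth and 1 with the covariate with 1 slope per stage, the latter also chosen after seeing the data, as were the fits without male fetal liver 11 and the embryo levels without male embryo 1, which changed no call and moved no mean by more than its SD. The cause of these shifts was not tested. Over all genes, the number called moved by more than 1.5 times under the following alternatives. By adjusted p alone it was 11674 in place of 5653 (adult against fetal liver), 13211 in place of 8397 (ES against fetal liver), 4807 in place of 600 (gender, fetal liver) and 3400 in place of 984 (gender, adult liver). DESeq2 called 80 in place of 24 by gender in embryos. With the share of reads outside genes as a covariate, 9 were called in place of 600 by gender in fetal liver. Without the filter the counts by gender were 1057 in fetal and 1518 in adult liver. With 1 ES line left out they were 0 to 3070 in place of 1205, and with the covariate with 1 slope per stage the interaction count was 989 in place of 4384. Replicate numbers did not pair the samples. With them as a replicate block the counts were 7 (adult against fetal liver), 5 (ES against fetal liver), 7 (ES against adult liver) and 2 (interaction, without Dis3l2), and Hmga2 in ES against fetal liver was 0.70 (adjusted p = 0.17 by edgeR). Embryo means without TMM factors stayed within their SD. In the adult livers, 3 reads equal 0.631 to 1.91 CPM per library, which limits the values of Lin28a, Lin28b, Igf2bp1, Igf2bp3, Hmga1 and Hmga2 there.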

Other observations

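Male embryo 1 held both the lowest Hmga2 level of the 12 embryos (153 CPM, the next lowest 309 CPM) and the highest Lin28b (27.6 CPM, the next highest 18.8 CPM) and Igf2bp3 (52.6 CPM, the next highest 46.1 CPM). It also had the highest share of uniquely aligned reads outside genes among the embryos, 14.4%, against 8.63 to 13.9% in the others. Male embryo 5 had the lowest Lin28b (0.615 CPM) and the lowest Igf2bp3 (2.15 CPM) and the highest Lin28a (77.6 CPM).

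In fetal liver Igf2 was higher in males (log2 (male/female) 0.41, SE 0.065, adjusted p = 3.0e-05 by edgeR) and H19 lower (-0.28, SE 0.060, adjusted p = 8.4e-04), both under the fold threshold and both in libraries whose share of reads outside genes differed by gender. Eif2c2 was also higher in male fetal livers (0.83, SE 0.12, adjusted p = 1.1e-05). No cause of these differences was tested.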
